A study of Mus musculus with 12 samples.

Results

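The comparison described here is the effect of losing Smad3 on kidney noncoding RNA during anti-GBM nephritis, an immune glomerulonephritis raised with antibody to the glomerular basement membrane (GBM). The libraries were chosen by their source label. They are 2 of Smad3 knockout (KO) kidney and 2 of wild-type (WT) kidney, both labelled anti-GBM GN, out of 12 in the series. The strain is C57BL/6J in both. Both groups received sheep IgG in Freund's adjuvant and, 5 days later, sheep antibody to mouse GBM at 60 μg/g body weight, and the labels' protocol then speaks of day 10. The normal KO and normal WT kidneys, 2 libraries each, served as the reference for the interaction between genotype and nephritis. The obstructed kidneys (UUO) entered the choice of transcripts tested, the scaling between libraries and the estimate of the spread. Their levels are given beside some results. Whole kidney was used, so fewer cells of a type and less RNA per cell cannot be told apart. Neither the age and sex of each animal nor the cell type in which Smad3 is lost is given. The labels carry a code for each library and do not say what it stands for, so p-values measure the spread between libraries, which may be technical.

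Smad3 is the transcription factor that TGF-β receptors phosphorylate. With Smad4 it enters the nucleus and turns on matrix and profibrotic genes, and in the nephritic kidney the pathway is known for driving scarring and for acting on inflammation. Noncoding RNAs are part of its output: Smad3 is known to induce the precursors of some microRNAs and to lower those of others, such as the miR-200 family, which guard the epithelial state. The tables hold 42452 putative noncoding transcripts, 10852 with a database match (named ncRNA_aligned plus a number, here aligned) and 31600 predicted without one (ncRNA_predict, here predict). Some matches are elements within messenger RNAs, such as the renin stability element. Smad3 itself was not analysed here, as the tables hold no annotated protein-coding genes, so the genotype rests on the labels.

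The sequences of the microRNAs on which the precursor results below turn are shown first, from RefSeq (GRCm38.p6), with the seed, bases 2 to 8, in capitals. The mir-135a-1 hairpin lies at chr9:106056455-106056544 on the plus strand in mm9, within the gene D030055H07Rik and opposite an exon and UTR of Glyctk. The mir-200b hairpin lies at chr4:155429790-155429859 on the minus strand, within the annotated genes Gm13648 and Ttll10. The 4 mature arms have 4 different seeds. The libraries were made from the longer RNA, so the values given for these entries are those of long transcripts that match the precursor, and the mature arms themselves were not measured.
mmu-miR-135a-5p: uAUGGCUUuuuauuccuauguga
mmu-miR-135a-1-3p: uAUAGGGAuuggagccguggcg
mmu-miR-200b-3p: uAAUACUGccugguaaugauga
mmu-miR-200b-5p: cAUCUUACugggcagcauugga

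The 4 libraries differed in make-up, and the genotypes differed with it. Reads on the listed transcripts came to 5237456 and 6944047 in KO and to 7080735 and 6867924 in WT. At a common depth of 5237456 reads, 17997 and 24580 transcripts were listed in KO against 33382 and 34854 in WT. Breadth of coverage, the covered length over that of randomly placed reads, was 0.338 and 0.636 in KO and 0.823 and 0.879 in WT. Levels are given below in CPM, counts relative to the library's total after TMM scaling. A 290-base transcript (aligned_7824) took 36.4% of the reads of KO library 1 and between 4.27% and 5.99% of the others. MRP RNA, a short RNA of the nucleolus and mitochondria (aligned_6544), stood at 82570 and 27570 CPM in KO and 9518 and 9939 in WT (log2 fold change 2.50 ± 1.24 SE, edgeR adjusted p = 0.394). The log2 CPM of the KO pair correlated at 0.876 across transcripts and those of the WT pair at 0.941, while KO with WT gave 0.831 to 0.903. Xist, the RNA of the inactive X, stood at 93.3 and 992.6 CPM in KO and 3.30 and 1.53 in WT, a difference that did not pass (log2 7.81 ± 2.81, edgeR adjusted p = 0.312). It stood at 24.2 and 1279 CPM in normal KO, at 0.855 and 21.7 in normal WT and at most at 1.68 in the obstructed kidneys, so it was uneven within groups. Its part, and that of breadth and make-up, in the results below was not tested.

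**Figure D1:**
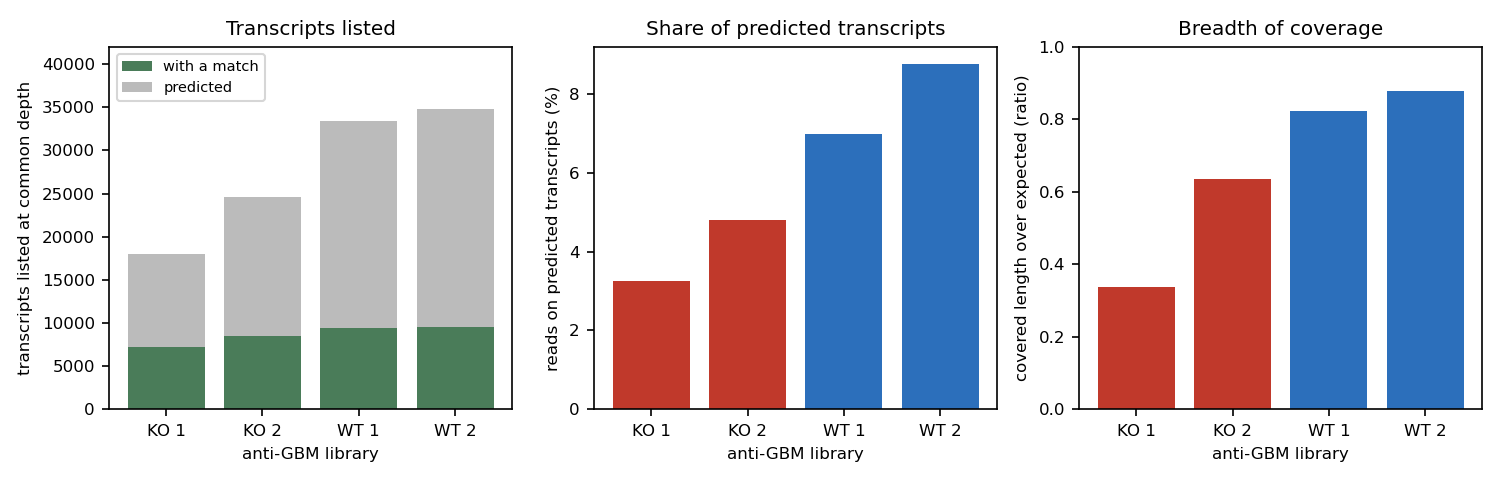
Make-up of the 4 anti-GBM libraries: transcripts listed at a common depth of 5237456 reads (left), percent of reads on predicted transcripts (middle) and breadth of coverage as a ratio to randomly placed reads (right), 1 bar per library. Both KO libraries sit below both WT libraries in all 3 panels, and KO library 1 is lowest.

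Transcripts were compared by counts with edgeR's quasi-likelihood test, and called where the Benjamini-Hochberg adjusted p was under 0.05. Of 24816 transcripts tested, 5 differed between KO and WT, which is 0.0201%. Of these 4 were higher in KO (0.0161%) and 1 was lower (0.00403%). At an unadjusted p under 0.05, 3661 (14.8%) differed, 1078 higher (4.34%) and 2583 lower (10.4%). The KO and WT values did not overlap for 12796 transcripts (51.6%), 3327 higher in KO (13.4%) and 9469 lower (38.2%). DESeq2 called 434, of which 129 were higher and 305 lower, and library size in place of TMM scaling called 5 higher and 209 lower. The median log2 fold change of all transcripts tested was -0.62 with TMM, -0.72 scaled by DESeq2 size factors and -1.37 by library size. Each called change is therefore also given relative to the TMM median of all tested. That median does not stand for the level of the calls. It was 0.54 at 100 to 1000 CPM and 0.83 over 1000 CPM, where the higher calls lay, and 0.32 at 10 to 100 CPM, where the lower one lay. Relative to those medians the higher calls would be smaller and the lower one larger in size.

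The largest called change was in renin's own RNA element. The transcript aligned_2307, 1411 bases long, matches the renin stability regulatory element, a region of renin mRNA that is bound by proteins controlling its decay. Renin is the protease of the juxtaglomerular cells that starts the angiotensin cascade, and in mm9 its gene Ren1 lies at chr1:135247087-135256902 on the plus strand. The element stood at 562.2 and 1238 CPM in KO and at 5.13 and 20.6 CPM in WT, from 2182, 6284, 42 and 189 reads. Both KO values were far above both WT values, with a log2 fold change of 6.13 ± 0.84 (SE, edgeR adjusted p = 0.0315), or 6.74 above the median of all transcripts. Reads covered 97.3% and 99.8% of it in KO and 87.0% and 97.2% in WT. The normal kidneys held 220.4 and 144.4 CPM in WT and 130.8 and 521.7 in KO, and the obstructed ones 83.6 and 126.4 in WT and 311.5 and 379.6 in KO. The WT nephritic libraries were thus the 2 lowest of the 12, and the KO nephritic libraries the 2 highest. The genotype difference in nephritis exceeded that in normal kidney by 5.29 ± 1.01 on the log2 scale, which did not pass (edgeR adjusted p = 0.160).

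Another 3 conserved regions that were predicted to fold into RNA structure were also called higher. The EvoFold region aligned_6523, 2348 bases, stood at 629.2 and 1630 CPM in KO and 86.5 and 150.8 in WT (log2 3.25 ± 0.49, edgeR adjusted p = 0.0181; 3.87 above the median). The RNAz region aligned_2187, 3226 bases, had 1581 and 2970 CPM in KO and 242.8 and 264.3 in WT (log2 3.17 ± 0.51, edgeR adjusted p = 0.0275; 3.78 above the median). EvoFold and RNAz are methods that find conserved structure in genome alignments, and neither entry names a function. A second RNAz region, aligned_3665 of 3788 bases, reached 1305 and 4263 CPM in KO and 413.8 and 442.1 in WT (log2 2.70 ± 0.46, edgeR adjusted p = 0.0315; 3.32 above the median). KO library 2 was the higher of the KO pair in all of these, and each KO value lay above both WT values. In normal kidney the group means were 451.0 (KO) and 339.6 (WT) for aligned_6523, 1013 and 505.9 for aligned_2187, and 1458 and 1102 for aligned_3665. In obstructed kidney aligned_6523 was also higher in KO, at 123.4 and 98.7 CPM against 34.3 and 39.0 in WT. So was aligned_3665, at 437.6 and 403.4 against 202.8 and 296.4, while aligned_2187 overlapped, at 144.8 and 192.9 against 129.0 and 201.2.

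The only transcript called lower was predict_3772, 5254 bases with no database match. It stood at 1.55 and 3.55 CPM in KO and at 37.0 and 59.8 in WT, from 6, 18, 303 and 549 reads (log2 -4.22 ± 0.74, edgeR adjusted p = 0.0405), or -3.60 relative to the median. Both KO nephritic libraries lay below all of the other 10 libraries, which ran from 12.2 to 59.8 CPM. Its genotype difference in nephritis was below that in normal kidney by 3.69 on the log2 scale and did not pass (edgeR adjusted p = 0.273).

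The 5 kept their direction in every alternative run, but whether they were called depended on single libraries. Without KO library 2 and without WT library 1 no transcript was called, with 4065 and 2238 at an unadjusted p under 0.05. Without WT library 2, 4 were called, among them the renin element and aligned_6523, and without KO library 1, the one of low breadth, 22. Of the 5 transcripts, the 4 higher ones were called without KO library 1 and predict_3772 was not (edgeR adjusted p = 0.243). The log2 fold change of the renin element was 5.42 without WT library 1 and 7.49 without WT library 2, and that of aligned_3665 was 1.61 without KO library 2.

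**Figure D2:**
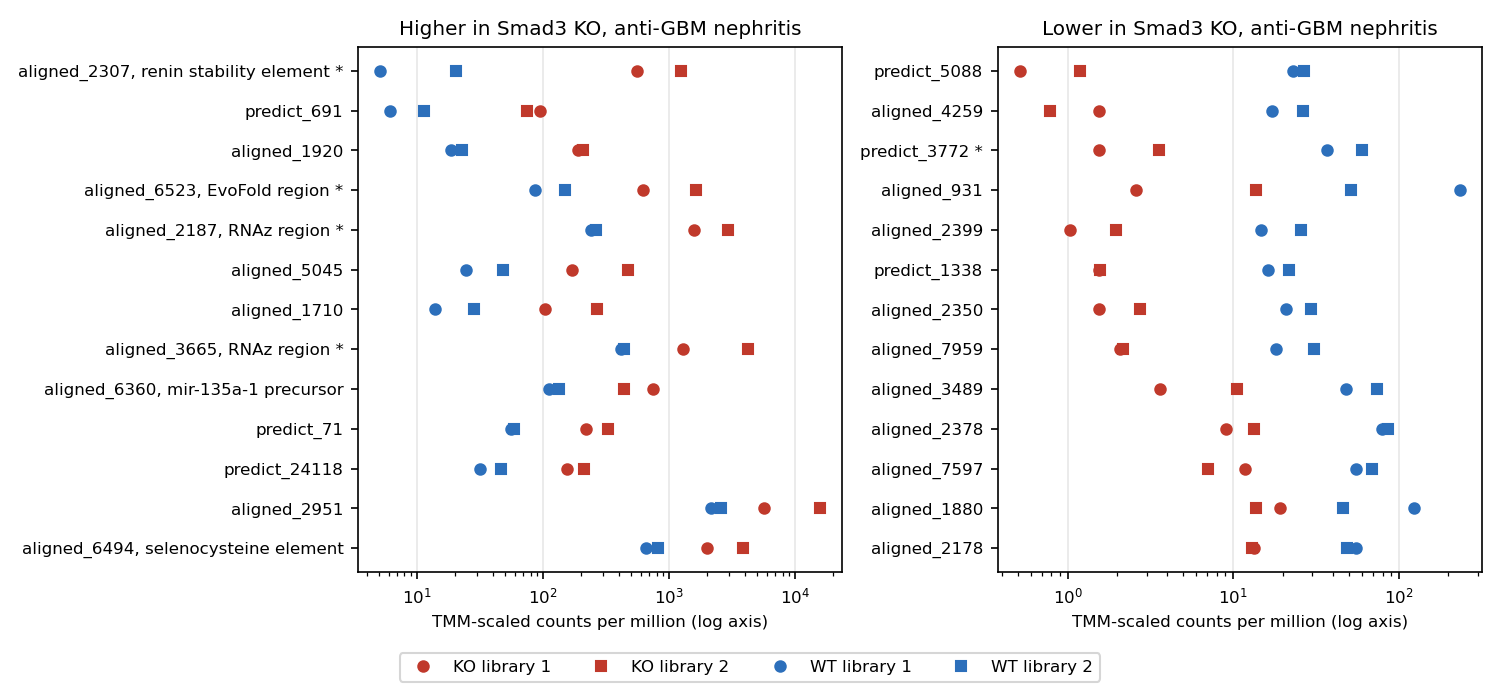
TMM-scaled CPM (log axis) of the named transcripts in each of the 4 anti-GBM libraries, higher in KO (left) and lower in KO (right), KO in red and WT in blue, library 1 as circles and library 2 as squares. An asterisk marks an adjusted p under 0.05. In every row the KO and WT points do not overlap, which the rule asked of the transcripts without an asterisk.

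Among the transcripts that just missed the threshold was one that matches the mir-135a-1 precursor. This transcript, aligned_6360 of 4267 bases, stood at 750.8 and 437.6 CPM in KO and at 113.0 and 133.7 in WT (log2 2.27 ± 0.44, edgeR adjusted p = 0.0519). The same adjusted p was reached by 5 further matched transcripts that the naming rule took. One is aligned_6494, a selenocysteine insertion element, at 1994 and 3862 CPM in KO and 652.8 and 817.2 in WT. Such an element sits in the mRNA of a selenoprotein and lets the ribosome read a stop codon as selenocysteine. Another is aligned_2951, a mouse lncRNA database entry of high level, at 5671 and 15870 CPM in KO and 2142 and 2614 in WT, where the normal groups had means of 10320 in KO and 10310 in WT. In the obstructed kidneys aligned_2951 was also higher in KO, at 3480 and 3244 CPM against 816.3 and 565.3 in WT. The cDNA match aligned_1710 had 103.8 and 268.4 CPM in nephritic KO and 14.0 and 28.3 in nephritic WT. The lncRNA entry aligned_1920 held 190.7 and 210.3 against 18.6 and 23.0 CPM, the closest KO pair of these. For each of these transcripts the KO values lay above the WT values, and without KO library 1 aligned_6494 passed (edgeR adjusted p = 0.0280).

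Among predicted transcripts higher in KO, the naming rule took predict_691, predict_71 and predict_24118, none of which passed. The first, 246 bases, stood at 95.3 and 75.6 CPM in KO and 6.10 and 11.3 in WT (log2 3.29 ± 0.65, edgeR adjusted p = 0.0519). The second, 6563 bases, had 220.8 and 327.3 against 55.6 and 58.7 CPM.

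On the lower side no matched transcript passed. Below the naming rule's mean level of 10 CPM, aligned_1086 (84 and 94 reads in WT, 0 in KO) came close to the threshold (edgeR adjusted p = 0.0519). The 10 that the rule took, at or above that level, had edgeR adjusted p-values from 0.0619 to 0.158. The first of these, aligned_931, stood at 2.58 and 13.8 CPM in KO and 234.8 and 51.5 in WT (log2 -4.11 ± 0.77). It was high in normal KO kidney, at 456.2 and 346.0 CPM, against 110.5 and 63.3 in normal WT, so that the order of the genotypes in nephritis was opposite to that in normal kidney. The test of that difference gave -6.32 ± 1.04 and an edgeR adjusted p of 0.0508. Aligned_2378, 10678 bases and described as a noncoding cDNA, had 9.02 and 13.4 CPM in KO and 79.7 and 86.3 in WT (log2 -2.88 ± 0.60). The lower predicted transcripts next to predict_3772 were predict_5088, at 0.515 and 1.18 against 22.9 and 26.9 CPM, and predict_1338, at 1.55 and 1.58 against 16.2 and 21.8 CPM.

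The direction of the difference went with the kind and the abundance of the transcript. Transcripts with a match had a median log2 fold change of 0.16, with 790 of 8035 higher and 380 lower at an unadjusted p under 0.05, against the 4.34% and 10.4% of all tested. The sign of this median turned, to -0.59 with library size alone, -0.19 without KO library 2, and -0.44 and -0.69 with limma on log2 RPKM plus 1 and plus 0.1. Predicted transcripts had a median of -1.17, with 288 of 16781 higher and 2203 lower, and stayed below 0 with library size (-1.93) and DESeq2 size factors (-1.28). The gap between the kinds was 1.33 with TMM, 1.34 with library size and 1.36 scaled as in DESeq2. It was 1.36 without KO library 1, 2.71 without KO library 2 and 0.90 without WT library 2. It narrowed to 0.78 with a filter of 10 CPM in 2 libraries and to 0.61 with limma on log2 RPKM plus 1. The share of all reads that fell on predicted transcripts was 3.25% and 4.81% in KO and 6.99% and 8.76% in WT, and in the normal libraries it lay between 4.83% and 5.23%. By abundance the median went from -2.01 below 1 CPM and -0.59 from 1 to 10 CPM to 0.32, 0.54 and 0.83 in the steps of 10 to 100, 100 to 1000 and over 1000 CPM. By length it was -0.71 up to 500 bases, -1.20 up to 1000, -0.92 up to 2000, -0.06 up to 4000 and 0.27 beyond. Kind, length and abundance were not separated.

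Selenocysteine insertion elements had the highest median of the classes with 8 or more transcripts tested, at 0.94 against -0.62 for all tested. Of 12 tested, 7 were higher and none was lower at an unadjusted p under 0.05, beside 4.34% and 10.4% of all tested. The class had a median level of 331.5 CPM. Of all transcripts at 100 to 1000 CPM, 23.4% were higher and 0.57% lower, with a median log2 fold change of 0.54. None of the 12 passed adjustment. Besides aligned_6494, aligned_5109 had 1554 and 4719 CPM in KO and 1092 and 1269 in WT (log2 1.41 ± 0.56), and aligned_802 had 51.0 and 189.5 against 31.1 and 19.9 CPM (log2 2.24 ± 0.83). In both, KO library 2 set the distance and KO library 1 lay just above the WT values. Of the 7, 2, aligned_922 and aligned_3688, match the same entry and may share a source. The class median was 0.32 without KO library 2, with 3 of 12 higher, and 0.19 with library size alone, with 1 higher and 1 lower.

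Transcripts matching small nucleolar and Cajal body RNAs, which guide chemical changes on ribosomal and spliceosomal RNA, had a median of 0.61. At an unadjusted p under 0.05, 13 of 108 were higher (12.0%) and none was lower, beside 4.34% and 10.4% of all tested. The class had a median level of 14.7 CPM. Of all transcripts at 10 to 100 CPM, 13.8% were higher and 4.88% lower, so the class's share higher was not above that of its level. The median length of the class was 1200 bases, longer than nucleolar and Cajal body RNAs, so the matches stand for longer transcripts that contain them. The one with the smallest p, aligned_11467 (MBII-28), had 24.7 and 37.0 CPM in KO and 3.17 and 5.23 in WT (log2 2.87 ± 0.77, edgeR adjusted p = 0.163). Aligned_7008 (SNORA55) had 42.5 and 76.6 against 12.8 and 19.3 CPM, and aligned_6368 (SNORA15) 801.6 and 1114 against 462.7 and 384.9 CPM. Without KO library 2 the class turned, to 5 higher and 10 lower and a median of -0.04, and with library size alone the median was -0.14.

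EvoFold regions had a median of 0.34, with 157 of 1346 higher and 41 lower, and cDNAs with no description one of 0.41, with 180 of 1437 higher and 36 lower, beside 4.34% and 10.4% of all tested. Human lncRNA entries gave 0.36, with 23 of 140 higher and 4 lower. With library size alone these 3 medians were below 0, at -0.41, -0.34 and -0.38, and the counts turned to 27 higher and 176 lower, 33 and 152, and 5 and 12. The median levels of the 3 classes were 11.6, 11.9 and 17.9 CPM. Of all transcripts at 10 to 100 CPM, 13.8% were higher and 4.88% lower. Of 68 Ensembl lincRNAs tested, 9 were higher and 3 lower, with a median log2 fold change of 0.13. Without KO library 2 they turned to 7 higher and 8 lower (median -0.94), and with library size alone to 3 and 5 (median -0.66). The one with the smallest p, picked after its values were seen, was 1190007F08Rik (aligned_7160) on chromosome 4, at 62.4 and 143.6 CPM in KO and 12.2 and 15.6 in WT (log2 2.89 ± 0.57, edgeR adjusted p = 0.0519).

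Fragments of Air, the long antisense RNA that is made from the paternal chromosome and silences neighbouring genes such as Igf2r there, had the lowest median of the matched classes. Of 17 tested, none was higher and 4 were lower at an unadjusted p under 0.05, beside 4.34% and 10.4% of all tested. The median was -1.80, against -0.62 for all tested. The KO values lay below the WT values in 12 of 17, beside 38.2% of all tested. The most abundant, aligned_11720, had 9.02 and 8.67 CPM in KO and 18.4 and 15.6 in WT (log2 -0.94 ± 0.61), so the levels were low throughout. All 17 match a single RNA and are not independent of each other, and the class was set apart after its name was seen.

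**Figure D3:**
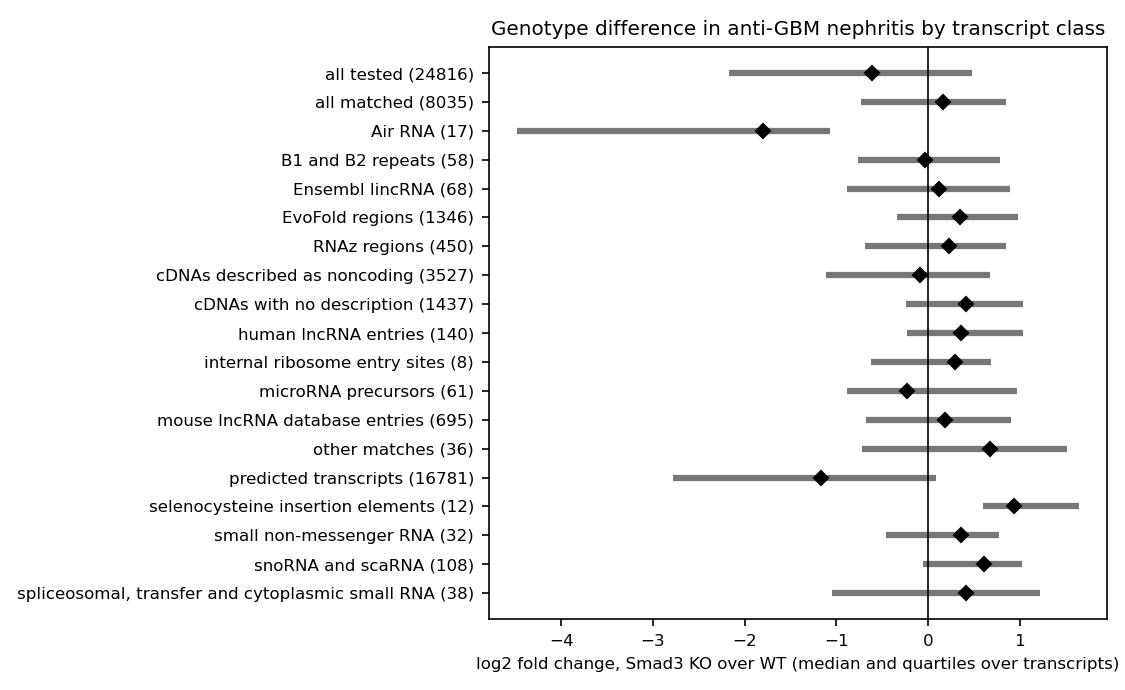
Median (diamond) and quartiles (bar) of the log2 fold change of KO over WT by class of database match, with the number of transcripts tested in parentheses. Predicted transcripts and Air fragments lie to the left at -1.17 and -1.80, selenocysteine insertion elements to the right at 0.94, and the median of all tested is -0.62.

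Among 61 microRNA precursor matches, 8 were higher (13.1%) and 6 lower (9.84%) at an unadjusted p under 0.05, beside 4.34% and 10.4% of all tested. The class median was -0.22. Its sign depended on the library set, at 0.19 without KO library 1 and -0.48 without KO library 2. After mir-135a-1, the transcript of mir-707 (aligned_2663) had 247.6 and 132.1 CPM in KO and 59.4 and 49.4 in WT (log2 1.80 ± 0.49, edgeR adjusted p = 0.167). The transcript matching mir-200b (aligned_7267), whose mature arms are printed above, went the other way, with 14.7 and 16.5 CPM in KO and 45.8 and 52.1 in WT (log2 -1.65 ± 0.54, edgeR adjusted p = 0.244). Normal kidney held means of 25.9 CPM in KO and 33.2 in WT for it. The transcript matching mir-30b had 2.06 and 20.3 CPM in KO and 27.1 and 34.2 in WT (edgeR adjusted p = 0.358). Neither of these passed. The values of each pair of groups did not overlap, KO being the lower, as was so for 38.2% of all tested.

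The transcript matching the mir-135a-1 precursor, called the precursor below, and the cDNA match aligned_5045 changed with nephritis in a way that depended on genotype. Strand is not given, so reads from Glyctk, which lies opposite the hairpin, cannot be told apart from those of the precursor. In normal kidney the precursor was lower in KO, at 234.1 and 259.0 CPM against 578.3 and 599.0 in WT, and in nephritis it was higher in KO. The test of that difference between differences, which uses the same nephritic libraries as the comparison above, gave 3.52 ± 0.61 on the log2 scale (edgeR adjusted p = 0.0403). Aligned_5045, 2298 bases, had 171.6 and 478.2 CPM in nephritic KO and 24.5 and 48.2 in nephritic WT, beside 31.5 and 93.3 in normal KO and 150.5 and 286.2 in normal WT (4.97 ± 0.85, edgeR adjusted p = 0.0403). For both transcripts WT values in nephritis lay below those of normal WT, and KO values in nephritis above those of normal KO. Both values kept their direction as each library was left out, at 3.08 to 3.86 for the precursor and 4.05 to 5.95 for aligned_5045, but the calls did not all hold. The precursor passed without KO nephritic library 2 (edgeR adjusted p = 0.0387) and not without KO nephritic library 1 (0.122), either WT nephritic library (0.239 and 0.118) or any normal library (0.188 to 0.327). Aligned_5045 passed without KO nephritic library 1 (edgeR adjusted p = 0.0237) or normal KO library 2 (0.0386), and not without KO nephritic library 2 (0.131), either WT nephritic library (0.242 and 0.0764) or the other three normal libraries (0.0674 to 0.327). With library size alone neither passed (edgeR adjusted p = 0.0515 for both). In the obstructed kidneys the precursor values were also higher in KO, at 234.9 and 179.2 CPM against 98.2 and 51.6. Those of aligned_5045 were higher in KO there too, at 96.7 and 70.1 CPM against 36.5 and 21.2. Of 24816 transcripts, 4 passed this test, or 0.0161%, each with a more positive genotype difference in nephritis than in normal kidney. An unadjusted p under 0.05 was found for 2481 (10%), 692 higher (2.79%) and 1789 lower (7.21%). The other two were at 0 in normal KO. The lncRNA entry aligned_6640 had no read in either normal KO library, 88.1 and 84.6 CPM in normal WT, 20.9 and 9.26 in nephritic KO and 5.49 and 5.67 in nephritic WT (edgeR adjusted p = 4.37e-05). The last, predict_8223, had none in normal KO, 19.9 and 3.25 CPM in normal WT, 12.4 and 24.8 in nephritic KO and 4.88 and 2.83 in nephritic WT (edgeR adjusted p = 0.0403). In nephritis alone the KO over WT difference did not pass for aligned_6640 (log2 1.43 ± 0.63, edgeR adjusted p = 0.316). Nor did it for predict_8223 (log2 2.27 ± 0.92, edgeR adjusted p = 0.297).

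**Figure D4:**
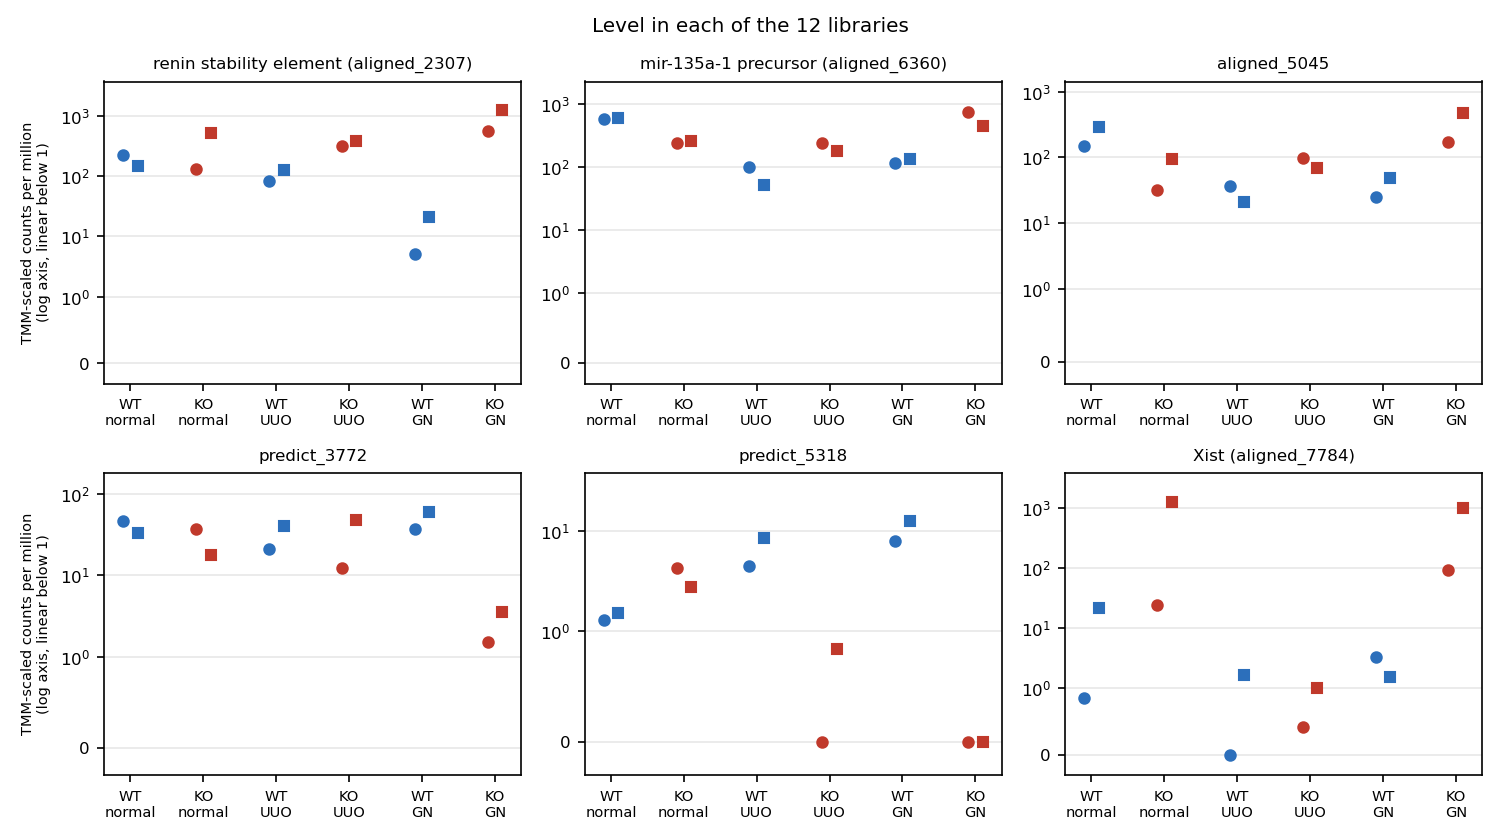
TMM-scaled CPM (log axis, linear below 1) of 6 transcripts in all 12 libraries, KO in red and WT in blue, library 1 as circles and library 2 as squares (GN is anti-GBM nephritis). The renin element is lowest in the WT nephritic libraries (5.13 and 20.6) and highest in the KO ones (562.2 and 1238), and predict_5318 is at 0 in both nephritic KO libraries.

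Transcripts read in WT and missing in KO were all on 1 side. Of the 42452 transcripts listed, 167 had 20 or more reads in both WT libraries and none in either KO library, and 0 were of the opposite kind. The 167 were 16 matched and 151 predicted transcripts, and 0 of them were called. All 167 had an unadjusted p under 0.05 in edgeR, but they were picked by these same counts, so this adds no support. The cut was set in reads, and the TMM factors were 0.743 and 0.733 in KO and 1.16 and 1.35 in WT. An equal CPM therefore means fewer reads in KO, which favours finding transcripts on the WT side. Among the 167, 138 had reads in both normal KO libraries, so most are not missing from the KO genotype as such, while 3 had none there either. With 3 counts over a pair as the limit, it was 0.335 CPM in KO and 0.173 in WT. The KO libraries also listed fewer transcripts at equal depth, as given above.

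Predict_5318 is among the 167. By its number it corresponds to np_5318, which the literature on this model describes as a Smad3-linked RNA from an intron of Erbb4, although the tables give it no coordinates. It had 65 and 117 reads in WT, or 7.93 and 12.8 CPM, and 0 in both KO libraries. With 3 counts over the KO group as the limit (0.335 CPM) it was at least 30.9-fold higher in WT. It missed the threshold in edgeR (adjusted p = 0.0623) and passed in DESeq2 (adjusted p = 0.00205). Normal KO kidney held 4.26 and 2.72 CPM of it and normal WT 1.28 and 1.52. Predict_17856, with 8 and 24 reads in WT and 0 in KO, was at least 5.36-fold higher in WT by the same limit (edgeR adjusted p = 0.315). The lncRNA entry aligned_2133 differed from these in that it had no read in any of the 6 KO libraries of the series, while the WT nephritic libraries held 46 reads each, or 5.61 and 5.01 CPM (edgeR adjusted p = 0.0619).

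Markers of cell types were few in these tables. Of 6 myeloid and lymphoid entries 3 were found, and none passed. The Spi1 element, from the mRNA of the myeloid factor PU.1, had 8.76 and 7.09 CPM in KO and 11.5 and 11.4 in WT. The transcript listed for Mir155 had at most 1.96 CPM in any of the 4 libraries, and the G-CSF elements had no read. Of 8 fibroblast and mesenchymal entries 2 were found. The vimentin mRNA element had 439.3 and 882.7 CPM in KO and 268.1 and 196.2 in WT (log2 1.51 ± 0.50, edgeR adjusted p = 0.244). The element of connective tissue growth factor mRNA, itself a known Smad3 target, had 824.8 and 487.2 CPM in KO and 305.5 and 176.5 in WT (log2 1.44 ± 0.48, edgeR adjusted p = 0.244). Both pairs of groups did not overlap, KO being the higher, as was so for 13.4% of all tested, and neither difference passed. Of 6 kidney epithelial entries 3 were found, the precursors of mir-135a-1, mir-200b and mir-30b described above. No entry of the endothelial, neural, liver or muscle lists was found. Their part in the results was not tested.

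Of 26 kidney injury and nuclear noncoding RNAs listed for this comparison, 8 were found, 6 of them tested, and none passed. Neat1, the RNA scaffold of paraspeckles (aligned_3989), had 587.2 and 235.5 CPM in KO and 542.7 and 1551 in WT, so the groups overlapped (log2 -1.35 ± 0.73, edgeR adjusted p = 0.402). H19, the imprinted fetal RNA, had at most 5 reads in any of the 4 libraries, and the 7SK matches at most 11. The transcript matching mir-22 stood between 3.61 and 7.08 CPM in all 4 and overlapped between the groups.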

How the data were processed

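Per the labels' protocols, ribosomal RNA was removed from total kidney RNA, and a gel step kept the longer molecules. The submitters' processing notes name Bowtie 0.12.7 and mm9; assembly, counting and strand are not given in the sources used here, so reads of a transcript and its antisense partner cannot be separated. Per the file headers, each table gives uniquely mapped reads (counts) per transcript, RPKM, the percent of the transcript covered, and the mean coverage (signal). Transcripts missing from a table were taken as 0. The authors' counts were tested; RPKM entered only alternatives, and the deposited percent and coverage signal the description of breadth (transcripts over 500 bases with 20 to 200 reads).

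Tests used edgeR 4.0.16 under R 4.3.3 (TMM, filterByExpr, 6 group means over 12 libraries, robust quasi-likelihood F test). All adjusted p-values are edgeR's with Benjamini-Hochberg adjustment unless another tool is named. CPM are TMM-scaled, and SE comes from the F statistic. With 2 libraries against 2 the smallest 2-sided permutation p is 0.3333, so p-values rest on the spread pooled over 6 groups. Limits from a count of 0 use 3 counts and cover counting error only. The fit was checked on simulated counts drawn from a common mean per transcript. These held no genotype difference in breadth or make-up, so the check does not cover such differences. Alternatives used DESeq2 1.42.0 and limma 3.58.1.

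The comparison, lists and classes were chosen with earlier results of these data known. The rule for named transcripts took the matched calls, up to 15 per direction. It filled these to 10 per direction, by p, with matched transcripts whose mean reached 10 CPM and whose groups do not overlap. Up to 3 predicted transcripts per direction followed in the same order. Fixed readouts were added, of which the text gives part. Of 182 Ensembl matches 162 got a gene name.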

Additional observations from a re-analysis of the deposited data

Results flagged for a closer look

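For 4 transcripts the genotype difference in nephritis differed from that in normal kidney by the test of the difference itself. The log2 difference of differences was 13.58 ± 1.40 for aligned_6640 (edgeR adjusted p = 4.37e-05), 11.52 ± 1.93 for predict_8223 (edgeR adjusted p = 0.0403), 4.97 ± 0.85 for aligned_5045 (edgeR adjusted p = 0.0403) and 3.52 ± 0.61 for the mir-135a-1 precursor aligned_6360 (edgeR adjusted p = 0.0403). The first pair had no read in normal KO kidney, so their fitted values are not bounds on a fold. With limma on log2 RPKM plus 1 and plus 0.1, aligned_6640 gave 5.61 and 8.97 and did not pass (limma adjusted p = 0.118 and 0.144). The others did not pass there either. Aligned_6640 passed without any 1 of the 12 libraries, with edgeR adjusted p-values up to 0.00495, and predict_8223 did not pass without KO nephritic library 2 (0.0740), either WT nephritic library (0.226 and 0.156), either normal KO library (0.285 and 0.188) or normal WT library 1 (0.337).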

How the results depend on the processing

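No paired analysis was possible because the labels carry no replicate numbers shared between the groups. Calls are given as a share of the transcripts tested and, in parentheses, as a count. For KO over WT, 0.0201% were called (5). The share was 1.75% with DESeq2 (434), 0.121% with DESeq2 size factors (30), 0.862% with library size alone (5 higher, 209 lower), 0.0766% without the 2 most abundant transcripts (19) and 0.431% with no filter (183). It was 0% with 10 CPM in 2 libraries (0, with 1205 at an unadjusted p under 0.05 in edgeR), 1.25% with only the libraries compared (308), 7.003% with the 9 libraries of higher breadth (1737, from 1 KO nephritic library), 0.242% with limma voom and quality weights (60), 0.00403% with limma on log2 RPKM plus 1 (1) and 0.254% plus 0.1 (63). For the difference of differences the main 0.0161% (4) became, in the same order, 0.508% (126), 0.0524% (13), 0.129% (32), 0.0363% (9), 0.184% (78), 0.0162% (1), 0.412% (102), 4.31% (1070), 0.677% (168), 0% (0, with 3458 at an unadjusted p under 0.05) and 0% (0, with 3842). With only the nephritic libraries and without the 2 most abundant transcripts, added after the data were seen, 1.26% were called (311). Leaving out 1 library at a time gave 0% to 0.379% for KO over WT and 0.00403% to 0.121% for the difference of differences. The counts were 22 and 8 without KO nephritic library 1, 0 and 4 without its library 2, 0 and 1 without WT nephritic library 1 and 4 and 4 without library 2. They were 94 and 30 without either KO UUO library, 47 and 16 or 49 and 14 without WT UUO library 1 or 2, 3 and 1 or 3 and 3 without normal KO library 1 or 2, and 3 and 1 or 3 and 2 without normal WT library 1 or 2 (libraries of groups not compared were left out as an addition after the data were seen). The cause was not tested. A lone library left in a group is assumed to vary like the other groups. All 5 transcripts were called by DESeq2, 4 with voom weights and 4 with the 9 libraries (the renin element was not, adjusted p = 0.113), 2 with log2 RPKM plus 0.1, and 0 plus 1 or with 10 CPM in 2 libraries. Of 55 values of named transcripts 7 changed sign in some alternative run, all with overlapping KO and WT values, and 0 of the 7 had an adjusted p under 0.05 in any of the runs. A count of 0 over the KO pair allows a level of up to 0.335 CPM.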

Other observations

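Some of the most abundant transcripts of the nephritic kidney did not separate by genotype. The noncoding cDNA match aligned_4113 had 6086 and 8647 CPM in nephritic KO and 8451 and 2805 in nephritic WT (log2 0.39 ± 0.47, edgeR adjusted p = 0.714), beside means of 430.2 in normal KO and 2173 in normal WT. The gammaretrovirus packaging signal aligned_8234, an element by which retroviral genomes and their endogenous relatives are packed, had 1798 and 1175 CPM in KO and 1513 and 772.8 in WT (edgeR adjusted p = 0.711), beside 78.7 in normal KO and 369.2 in normal WT. The sign of the genotype difference of both turned with library size alone (-0.33 and -0.35). In contrast the noncoding cDNA match aligned_4212 had 1333 and 2873 CPM in nephritic KO and 470.4 and 306.4 in nephritic WT (log2 2.44 ± 0.51, edgeR adjusted p = 0.0623), with means of 204.3 and 175.6 in normal KO and WT. Aligned_11935, a Y RNA match given as a single example, had 586.2 and 266.5 CPM in KO and 20.01 and 45.4 in WT (edgeR adjusted p = 0.322). Of 38 spliceosomal, transfer and cytoplasmic small RNA matches, 4 were higher and 4 lower at an unadjusted p under 0.05, beside 4.34% and 10.4% of all tested. Their median log2 fold change was 0.41, and -0.04 without KO library 2.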
